A study of Mus musculus with 20 samples.

Results

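The genes described are 39 genes of S phase and DNA replication, measured by mRNA sequencing in gastric organoids, which are three-dimensional cultures of stomach epithelium, from BL/6 mice. They were chosen by name, as the components of the replication machinery and its G1/S regulators that appear as rows of the gene count table, and all 39 were found among its 24047 genes. All 39 also passed the filter on low counts, which left 13476 genes for testing. The 20 libraries came from 8 numbered organoid lines. Dysplastic lines with p53 knocked out in vivo were 794 and 801 (3 libraries each), and dysplastic lines with wild-type p53 were 565 and 752 (3 libraries each). Non-dysplastic lines were 1270, knocked out ex vivo, 650, knocked out in vivo, and the p53 wild-type lines 300 and 1269 (2 libraries each). Every line was grown in conditioned medium. The sources used here do not give the age of the animals, the promoter or Cre behind the in vivo knockout, or whether lines came from separate animals. The line was taken as the replicate and its libraries were summed, so a p-value refers to the variation among these lines only. Levels are CPM, the counts scaled to a common library size, after trimmed mean of M-values scaling, and group values are mean ± SD over lines.

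Replication starts with licensing: the origin recognition complex, Cdc6 and Cdt1 load the Mcm2 to Mcm7 ring on DNA in G1, and geminin (Gmnn) blocks Cdt1 after S phase has begun. Cdc45 and the GINS complex then turn the ring into the active CMG helicase, the Rfc complex loads the sliding clamp Pcna, and the polymerases copy the strands from deoxynucleotides made by ribonucleotide reductase and thymidylate synthase. Most of these genes are classical targets of the E2F transcription factors, which the retinoblastoma family holds back until cyclin D and cyclin E kinases act. The p53 protein acts on the same step through Cdkn1a (p21), an inhibitor of cyclin-dependent kinases, and in the gastric epithelium S phase is normally limited to the progenitors of the glands.

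The promoters are shown because E2F binding sites are an element that many such genes are known to share. Whether these sites bear on the levels in these lines was not tested. Of the 39 genes, 32 matched a RefSeq promoter (GRCm38.p6, 250 bases before to 50 after the start of the gene, 300 bases in all). The 8-letter forms TTTCCCGC, TTTCGCGC, TTTGCCGC and TTTGGCGC were searched on both strands, counting overlapping matches. At least 1 match was found for 13 of the 32 genes (40.6%), against 2.60% of all 27025 genes with a promoter and 4.53% of the 10079 tested genes with a promoter. Counted by promoter, the share was 37.1% of the 35 promoters of these genes and 2.26% of all 32851 promoters of this length. A match is a description of the letters, not of binding. The 50-base windows below run 5′ to 3′ on the strand of the gene, with the matched letters in capitals, and stand for genes of licensing, the helicase, the clamp loader, a polymerase and the E2F family. They lie at chr1:20820264-20820313 (minus strand, Mcm3), chr8:75109336-75109385 (plus strand, Mcm5), chr1:128359786-128359835 (minus strand, Mcm6), chr11:98907993-98908042 (plus strand, Cdc6), chr8:122568015-122568064 (plus strand, Cdt1), chr5:151651189-151651238 (minus strand, Rfc3), chr7:44548766-44548815 (minus strand, Pold1) and chr4:136172274-136172323 (plus strand, E2f2).
Mcm3: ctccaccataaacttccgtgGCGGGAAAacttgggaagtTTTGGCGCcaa
Mcm5: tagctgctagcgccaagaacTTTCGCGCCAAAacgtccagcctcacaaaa
Mcm6: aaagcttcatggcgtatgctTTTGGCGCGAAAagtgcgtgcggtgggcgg
Cdc6: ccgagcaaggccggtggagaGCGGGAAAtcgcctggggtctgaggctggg
Cdt1: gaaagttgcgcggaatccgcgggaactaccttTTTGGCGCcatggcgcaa
Rfc3: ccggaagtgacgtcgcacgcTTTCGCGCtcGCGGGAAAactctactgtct
Pold1: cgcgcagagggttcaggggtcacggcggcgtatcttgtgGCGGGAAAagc
E2f2: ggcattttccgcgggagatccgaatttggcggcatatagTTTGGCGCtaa

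Library totals were between 5669521 and 16323270 counts, and each of the 39 genes had at least 26 counts in every library. Trp53, the targeted gene, was at 6.92, 22.2, 4.99 and 26.9 CPM in KO lines 794, 801, 1270 and 650, against 154, 122, 112 and 161 CPM in WT lines 565, 752, 300 and 1269. The 4 KO lines were below the 4 WT lines, and 801 and 650 had more residual Trp53 counts than 794 and 1270. The 6 epithelial marker genes summed to between 10879 and 14626 CPM per line, and 7 of 8 immune markers were under 1 CPM in all lines. Counts of Xist and Ddx3y marked lines 650 and 300 as male and the other 6 lines as female, so the male lines were both non-dysplastic.

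The level of the whole group differed most between single lines, not between genotypes or dysplasia classes. Line 650 (in vivo KO, non-dysplastic) had the lowest level of the 8 lines for 35 of 39 genes, and line 1269 (WT, non-dysplastic) had the highest for 35 of 39. Over all tested genes line 650 was lowest for 14.6% and line 1269 highest for 19.1%. The exceptions were Gmnn, Gins1 and Gins2, lowest in WT dysplastic line 752, E2f2, lowest in KO dysplastic line 801, Gmnn, Gins2 and Tk1, highest in KO dysplastic line 794, and Pold1, highest in ex vivo KO line 1270. Of these, Gmnn, Gins1, Gins2 and Tk1 belong to 15 genes that were higher in the highest-numbered library of all 6 lines described further below. E2f2 and Pold1 do not. The mean log2(CPM + 1) of the 39 genes was 5.54 and 5.67 in dysplastic KO lines 794 and 801 and 5.69 and 5.23 in dysplastic WT lines 565 and 752. It was 5.88 in ex vivo KO line 1270, 4.99 in in vivo KO line 650, and 5.56 and 6.13 in WT lines 300 and 1269. Both extremes were thus non-dysplastic lines, and the 4 dysplastic lines lay between them. The proliferation marker Mki67 had the same extremes, at 287, 336, 355, 273, 484, 200, 305 and 655 CPM in that order of lines. By library, the mean of the 39 genes was 4.66 and 5.32 in line 650 and 6.32 and 5.92 in line 1269. The second library of line 650 lay above the second libraries of lines 752 (4.97) and 794 (5.13). That of line 1269 lay below the second library of line 1270 (6.23), so the extremes rested mostly on the first libraries. In bulk RNA a lower level of these genes can mean fewer cycling cells or less RNA per cycling cell, which cannot be told apart. The summed fibroblast markers were also highest in line 650, at 35.8 CPM against 5.17 to 12.7 CPM in the other lines, with 4 of the 8 markers under 1 CPM in all lines. The 4 smooth muscle markers summed to 111 and 112 CPM in lines 650 and 752, the lowest lines by the mean of the 39 genes, and to 209 CPM in line 801, which was not low. In lines 794, 565, 1270, 300 and 1269 they summed to 2.05, 32.7, 7.90, 8.68 and 4.21 CPM. The 8 gastric markers summed to 376 CPM in line 1269 and to between 511 and 5290 CPM in the other lines, with the highest sum in line 794. The part of these markers in the result was not tested.

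**Figure D1:**
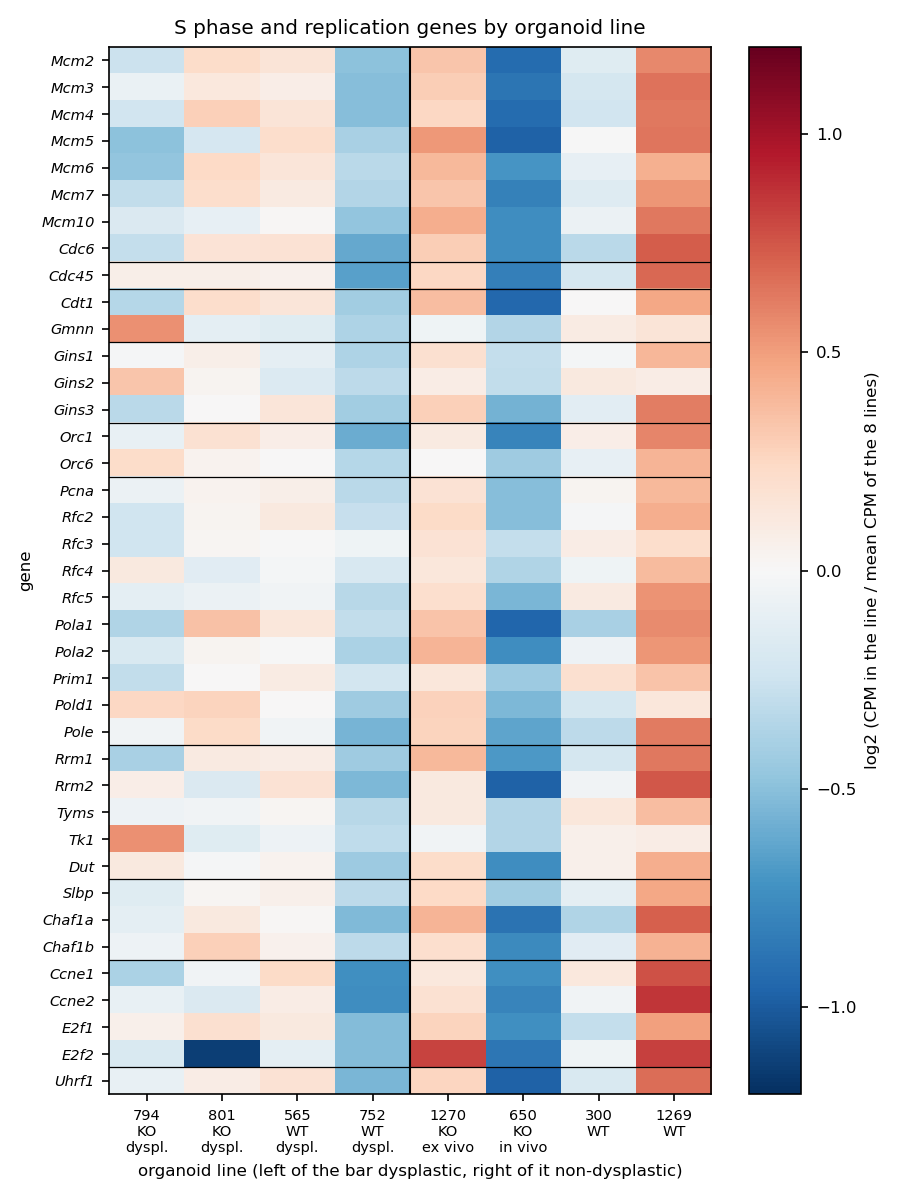
Level of each of the 39 genes (rows, with black lines where the role of the gene changes) in each line (columns), as log2 of the CPM in the line over the mean CPM of the 8 lines. Line 650 is the darkest blue column and line 1269 the darkest red one, each for 35 of 39 genes, while Gmnn and Tk1 are highest in line 794 and E2f2 is lowest in line 801.

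Among the licensing genes, Mcm2, a subunit of the helicase ring, had 76.5, 123 and 146 CPM (lowest, median and highest of 6 libraries) in dysplastic KO lines and 67.1, 111 and 143 CPM in dysplastic WT lines. Its non-dysplastic libraries had 101 and 197 CPM in ex vivo KO line 1270, 55.8 and 72.9 CPM in in vivo KO line 650, and 123, 90.3, 210 and 146 CPM in WT lines, where 300 comes before 1269 here and in the sentences that follow. The dysplastic groups overlapped, and the lowest library was the first of line 650. Mcm5, another subunit of the ring, had 81.2, 125 and 133 CPM in dysplastic KO lines and 94.4, 147 and 189 CPM in dysplastic WT lines. The non-dysplastic libraries of Mcm5 had 131 and 291 CPM in line 1270, 60.3 and 98.0 CPM in line 650, and 157, 140, 284 and 182 CPM in WT lines. Its single highest value was in the second library of line 1270, and the first library of the same line had less than any non-dysplastic WT library. The other ring subunits Mcm3, Mcm4, Mcm6 and Mcm7 spanned 85.6 to 246, 74.5 to 218, 116 to 255 and 86.8 to 219 CPM over lines, each from line 650 to line 1269.

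Mcm10, which helps start the helicase, had 29.2, 37.1 and 42.7 CPM in dysplastic KO lines and 27.6, 36.6 and 44.1 CPM in dysplastic WT lines. Non-dysplastic Mcm10 libraries had 41.4 and 70.5 CPM in line 1270, 23.3 and 27.0 CPM in line 650, and 42.5, 36.7, 78.2 and 50.9 CPM in WT lines 300 and 1269. Cdc6, the ATPase that loads the ring, had 22.1, 33.7 and 40.9 CPM in dysplastic KO lines and 18.7, 32.5 and 46.0 CPM in dysplastic WT lines. Non-dysplastic Cdc6 libraries had 27.0 and 58.6 CPM in line 1270, 18.1 and 25.7 CPM in line 650, and 30.3, 26.3, 60.5 and 58.0 CPM in non-dysplastic WT lines. Both genes had overlapping groups, and line 650 was the lowest of the 8 lines for each. Cdt1, the loading partner that is destroyed at the start of S phase, had 27.9, 39.8 and 54.2 CPM in dysplastic KO lines and 24.1, 41.0 and 54.7 CPM in dysplastic WT lines. Non-dysplastic Cdt1 libraries had 34.9 and 75.2 CPM in line 1270, 21.4 and 24.4 CPM in line 650, and 48.2, 38.4, 71.2 and 48.1 CPM in non-dysplastic WT lines. The 2 libraries of line 1270 thus fell on either side of the WT libraries.

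Gmnn, the inhibitor of Cdt1, did not follow this order by line. It had 32.7, 45.3 and 104 CPM in dysplastic KO lines and 22.2, 33.8 and 48.8 CPM in dysplastic WT lines. Non-dysplastic Gmnn libraries had 26.0 and 52.5 CPM in line 1270, 21.3 and 47.6 CPM in line 650, and 33.5, 55.2, 52.4 and 39.7 CPM in non-dysplastic WT lines. Its highest value was in library 794-3, and the other 2 libraries of line 794 had 51.3 and 39.3 CPM. Its lowest value, 21.3 CPM, was in the first library of line 650. Library 794-3 and the second libraries of lines 650 and 300 are among the highest-numbered libraries described further below, in which Gmnn was higher in all 6 lines. Orc1, the large ATPase subunit of the origin recognition complex, had 9.02, 15.1 and 20 CPM in dysplastic KO lines and 7.38, 12.4 and 17.0 CPM in dysplastic WT lines. Non-dysplastic Orc1 libraries had 11.4 and 18.9 CPM in line 1270, 5.18 and 12.4 CPM in line 650, and 15.6, 14.2, 24.2 and 18.4 CPM in non-dysplastic WT lines. Orc6, its smallest subunit, had 32.4, 43.4 and 83.0 CPM in dysplastic KO lines and 24.5, 40.4 and 52.8 CPM in dysplastic WT lines. Non-dysplastic Orc6 libraries had 35.6 and 50 CPM in line 1270, 18.9 and 49.2 CPM in line 650, and 33.5, 46.2, 62.0 and 51.5 CPM in non-dysplastic WT lines. Orc6 exons overlap Vps35. No source used here says whether counting used the strand, and without it the reads of 2 overlapping genes cannot be told apart.

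Of the genes that complete the CMG helicase, Gins1 had 9.74, 13.3 and 17.6 CPM in dysplastic KO lines and 8.63, 11.5 and 13.3 CPM in dysplastic WT lines. Non-dysplastic Gins1 libraries had 9.80 and 19.6 CPM in line 1270, 5.94 and 17.4 CPM in line 650, and 11.8, 14.0, 19.7 and 15 CPM in non-dysplastic WT lines. Gins2, a second GINS subunit whose exons overlap Gse1, had 21.2, 34.0 and 84.6 CPM in dysplastic KO lines and 19.8, 28.4 and 43.4 CPM in dysplastic WT lines. Non-dysplastic Gins2 libraries had 27.1 and 46.6 CPM in line 1270, 15.3 and 46.3 CPM in line 650, and 26.4, 50.4, 41.1 and 33.2 CPM in non-dysplastic WT lines. In line 650 the 2 libraries of Gins2 therefore spanned nearly the whole range of the other non-dysplastic lines and went below it. Gins3 and Cdc45 spanned 5.29 to 12.0 CPM and 16.5 to 47.1 CPM over lines, each lowest in line 650 and highest in line 1269.

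The clamp Pcna had 95.2, 143 and 189 CPM in dysplastic KO lines and 91.3, 135 and 159 CPM in dysplastic WT lines. Non-dysplastic Pcna libraries had 107 and 210 CPM in line 1270, 72.3 and 138 CPM in line 650, and 138, 154, 206 and 167 CPM in non-dysplastic WT lines. Rfc5, a subunit of the clamp loader, had 34.1, 43.7 and 73.0 CPM in dysplastic KO lines and 32.9, 49.2 and 54.2 CPM in dysplastic WT lines. Non-dysplastic Rfc5 libraries had 42.6 and 75.2 CPM in line 1270, 24.8 and 49.9 CPM in line 650, and 45.9, 66.3, 83.6 and 67 CPM in non-dysplastic WT lines. For both genes the lowest library was the first of line 650. Loader subunits Rfc2, Rfc3 and Rfc4 spanned 41.5 to 80.2, 28.5 to 40.1 and 23.6 to 39.5 CPM over lines, and the ratio of highest to lowest line, 1.41 for Rfc3, was the smallest of the 39 genes. Exons of Rfc5, Rfc2 and Rfc4 overlap Wsb2, Lat2 and Eif4a2, in that order.

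Pola2, a subunit of the primase-polymerase complex, had 28.4, 48.1 and 49.8 CPM in dysplastic KO lines and 30.1, 44.7 and 48.0 CPM in dysplastic WT lines. Non-dysplastic Pola2 libraries had 47.8 and 77.7 CPM in line 1270, 25.3 and 32.7 CPM in line 650, and 46.9, 44.5, 77.1 and 61.2 CPM in non-dysplastic WT lines. Line 650 lay below the other non-dysplastic libraries of Pola2. Prim1, the catalytic primase subunit, had 20.5, 37.7 and 60.7 CPM in dysplastic KO lines and 26.6, 41.6 and 59.2 CPM in dysplastic WT lines. Non-dysplastic Prim1 libraries had 34.4 and 58.2 CPM in line 1270, 19.7 and 47.1 CPM in line 650, and 38.4, 59.2, 64.1 and 43.7 CPM in non-dysplastic WT lines. Pold1, the catalytic subunit of polymerase delta, had 41.3, 52.3 and 55.4 CPM in dysplastic KO lines and 27.3, 38.5 and 44.2 CPM in dysplastic WT lines. Its non-dysplastic libraries had 35.6 and 65.6 CPM in line 1270, 26.8 and 32.7 CPM in line 650, and 38.3, 34.9, 54.8 and 38.5 CPM in WT lines. Of the 6 dysplastic KO libraries of Pold1, 5 lay above all 6 dysplastic WT libraries. Pola1 spanned 20.7 to 59.0 CPM and Pole, the catalytic subunit of polymerase epsilon, 23.9 to 57.1 CPM over lines.

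Among the genes of nucleotide supply, Rrm2, the small subunit of ribonucleotide reductase that is made in S phase, had 80.4, 93.0 and 137 CPM in dysplastic KO lines and 58.7, 97.0 and 128 CPM in dysplastic WT lines. Non-dysplastic Rrm2 libraries had 70.5 and 153 CPM in line 1270, 39 and 73.5 CPM in line 650, and 106, 96.6, 193 and 160 CPM in non-dysplastic WT lines. Its level in line 1269 was 3.28 times that in line 650, and the large subunit Rrm1 spanned 165 to 412 CPM over the same lines. Tyms, thymidylate synthase, had 45.1, 65.4 and 127 CPM in dysplastic KO lines and 43.4, 75.2 and 86.5 CPM in dysplastic WT lines. Non-dysplastic Tyms libraries had 62.2 and 103 CPM in line 1270, 39.3 and 88.0 CPM in line 650, and 71.7, 97.0, 114 and 83.7 CPM in non-dysplastic WT lines. A pseudogene of Tyms has a row of its own, so reads could be split between them. Tk1, the thymidine kinase of the salvage pathway, had 59.1, 81.0 and 201 CPM in dysplastic KO lines and 44.5, 67.5 and 88.1 CPM in dysplastic WT lines. Non-dysplastic Tk1 libraries had 52.4 and 95.1 CPM in line 1270, 40.4 and 86.1 CPM in line 650, and 61.8, 98.8, 95.1 and 68.1 CPM in non-dysplastic WT lines. As for Gmnn, the highest library was 794-3, and the exons of Tk1 overlap Afmid. Dut, which removes dUTP, had 47.0, 67.5 and 88.8 CPM in dysplastic KO lines and 29.7, 60 and 74.0 CPM in dysplastic WT lines. Non-dysplastic Dut libraries had 46.0 and 99.1 CPM in line 1270, 23.2 and 57.9 CPM in line 650, and 54.0, 79.3, 97.8 and 74.3 CPM in non-dysplastic WT lines.

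Uhrf1, which carries DNA methylation over to new strands, had 61.8, 82.5 and 108 CPM in dysplastic KO lines and 39.4, 77.6 and 119 CPM in dysplastic WT lines. Non-dysplastic Uhrf1 libraries had 64.5 and 146 CPM in line 1270, 41.3 and 51.7 CPM in line 650, and 95.3, 60.5, 166 and 118 CPM in non-dysplastic WT lines. Its groups overlapped, with line 650 lowest. The chromatin assembly subunits Chaf1a and Chaf1b spanned 30.6 to 93.0 CPM and 21.7 to 49.2 CPM over lines, and Slbp, which binds the stem-loop of histone mRNA, 33.6 to 61.8 CPM, each from line 650 to line 1269.

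Of the G1/S regulators, cyclin E1 (Ccne1) had 13.0, 19.2 and 24.4 CPM in dysplastic KO lines and 9.81, 19.5 and 26.3 CPM in dysplastic WT lines. Non-dysplastic Ccne1 libraries had 15.1 and 31.3 CPM in line 1270, 9.83 and 17.3 CPM in line 650, and 23.4, 23.8, 38.1 and 35.6 CPM in non-dysplastic WT lines. Both libraries of line 650 and the first of line 1270 lay below the 4 non-dysplastic WT libraries. Cyclin E2 (Ccne2), whose exons overlap Ints8, had 9.58, 13.3 and 28.3 CPM in dysplastic KO lines and 8.19, 13.0 and 19.4 CPM in dysplastic WT lines. Non-dysplastic Ccne2 libraries had 12.7 and 23.5 CPM in line 1270, 5.41 and 14.6 CPM in line 650, and 12.6, 19.1, 31.1 and 27.7 CPM in non-dysplastic WT lines. E2f1, an activating E2F, had 13.4, 17.0 and 22.3 CPM in dysplastic KO lines and 10.1, 15.3 and 19.5 CPM in dysplastic WT lines. Non-dysplastic E2f1 libraries had 13.0 and 26.9 CPM in line 1270, 9.14 and 11.5 CPM in line 650, and 16.8, 10.5, 24.3 and 23.4 CPM in non-dysplastic WT lines. The activator E2f2 had its lowest line level in dysplastic KO line 801, with 3.90, 3.83 and 4.40 CPM in its libraries. Line 794, the other dysplastic KO line, had 8.84, 7.49 and 6.73 CPM, within the range of the dysplastic WT libraries. In the other lines E2f2 had 4.92, 6.94 and 9.38 CPM (lowest, median and highest) in dysplastic WT lines, 11.3 and 19.6 CPM in line 1270, 5.87 and 3.56 CPM in line 650, and 10.5, 6.42, 19.2 and 12.2 CPM in non-dysplastic WT lines. The ratio of highest to lowest line was 3.89 for E2f2, the widest of the 39 genes.

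**Figure D2:**
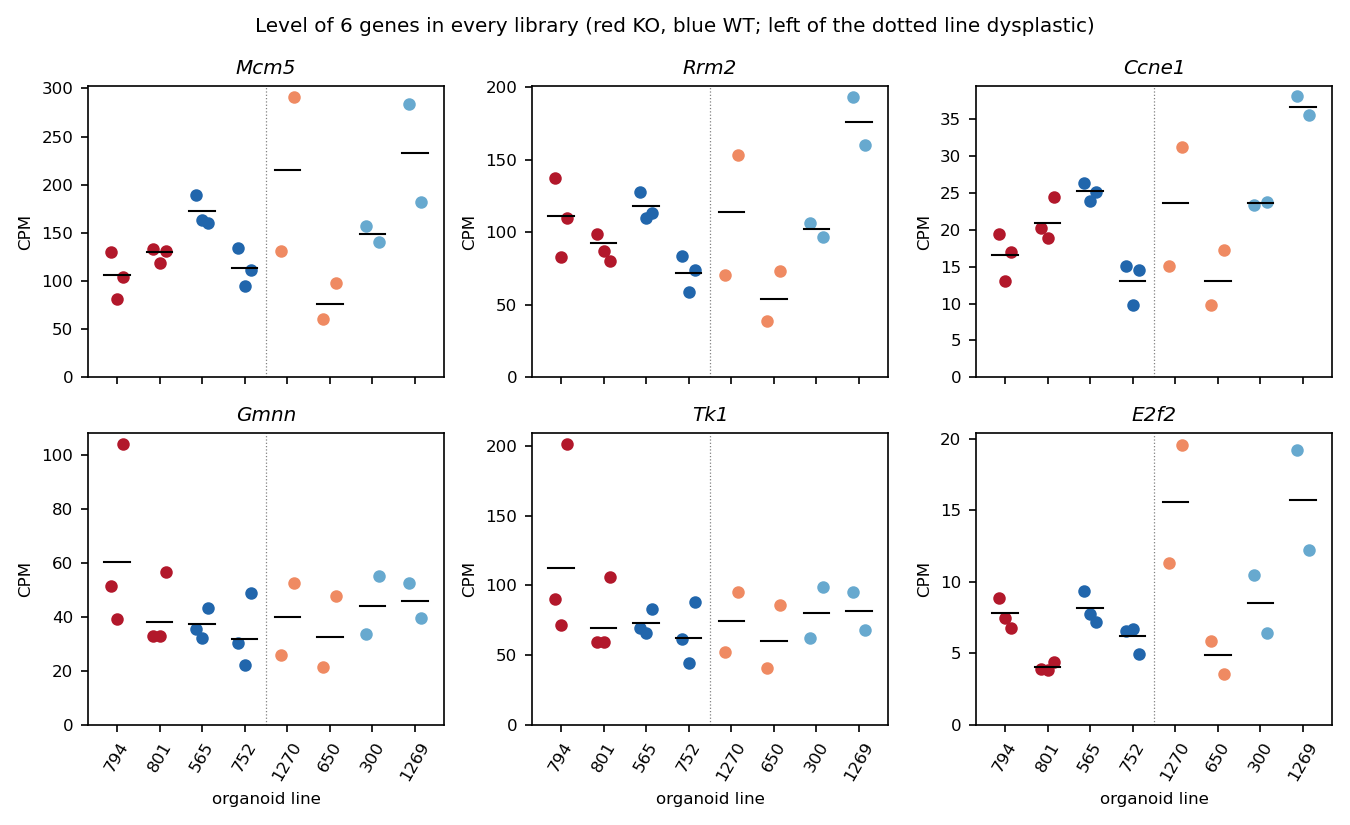
CPM of Mcm5, Rrm2, Ccne1, Gmnn, Tk1 and E2f2 in every library (points, in order of library number within a line), with horizontal bars for the line, KO lines in red or orange and WT lines in blue. The second library of line 1270 is far above the first for each gene, and Gmnn and Tk1 peak in 1 library of line 794, at 104 and 201 CPM.

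The first comparison asked how p53 loss bore on these genes in non-dysplastic organoids. Its KO side joined ex vivo line 1270 and in vivo line 650. The fold change was below 0 for all 39 genes, where 54.5% of all genes had one below 0. The 39 genes share the same lines, so here and below their signs are not independent. The median fold change was -0.36 on the log2 scale (range -0.72 to -0.05) against -0.02 over all tested genes. None passed edgeR's quasi-likelihood test (adjusted p under 0.05; 0% of all genes called), none had an unadjusted p under 0.05, and DESeq2 and limma-voom called none. Rrm2 was at 83.9 ± 42.9 CPM in KO lines and 139 ± 52.5 CPM in WT lines (SD over n = 2 lines each), and its log2 fold change was -0.72 ± 0.44 (SE). Ccne1 was at 18.3 ± 7.54 CPM in the KO lines and 30.1 ± 9.24 CPM in the WT lines (-0.72 ± 0.43), and Orc1 was at 11.8 ± 4.98 CPM in the KO lines and 18.1 ± 4.44 CPM in the WT lines (-0.62 ± 0.38). Line 650 lay below both WT lines for each of these, and line 1270 lay between them for Rrm2 and Orc1. Rfc5, Prim1 and Tyms had log2 fold changes of -0.46 ± 0.27, -0.39 ± 0.24 and -0.36 ± 0.21, and edgeR's adjusted p was 1.0 for the 6 genes. For 4 genes, Gmnn, Prim1, Tyms and Tk1, both KO lines were below both WT lines, where 10.6% of all genes did so, and in none were both above, where 9.47% did. All 4 were among the 15 genes that were higher in the highest-numbered libraries of 6 lines. Lines 650 and 300 have such a library and lines 1270 and 1269 do not. Without these libraries the median over the 39 genes was -0.47. Dropping KO line 1270 gave a median of -0.94, dropping KO line 650 gave 0.00, dropping WT line 1269 gave 0.01 and dropping WT line 300 gave -0.64, each with the lone line of a group assumed to vary like the other groups. Without single libraries it was -0.14 (1270-1), -0.66 (1270-2), -0.24 (650-1) and -0.24 (1269-1). Without library 1270-2, 19 of the 39 genes had an unadjusted p under 0.05 in edgeR, with none called. For this and later counts under other settings or tools, the share over all genes is not given. They cannot be read as particular to the 39 genes.

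In dysplastic organoids the same comparison gave a median log2 fold change of 0.11 over the 39 genes, against 0.01 over all tested genes. Of the 39 genes, 31 were above 0, as were 52.5% of all genes. None was called by edgeR (0% of all genes), DESeq2 or limma-voom, and none had an unadjusted p under 0.05 in edgeR. Gmnn was at 49.2 ± 15.8 CPM in KO lines and 34.6 ± 3.74 CPM in WT lines (0.51 ± 0.24), and Gins2 at 39.9 ± 5.79 CPM in the KO lines and 29.7 ± 2.22 CPM in the WT lines (0.43 ± 0.19, n = 2 lines each). Tk1 was at 90.6 ± 30.1 CPM in the KO lines and 67.5 ± 7.96 CPM in the WT lines (0.42 ± 0.25), with the spread of the KO mean coming from 112 CPM in line 794 and 69.4 CPM in line 801. Pold1 was at 50.7 ± 0.420 CPM in the KO lines and 37.1 ± 7.87 CPM in the WT lines (0.45 ± 0.29). Orc6 and Gins1 had 0.30 ± 0.24 and 0.25 ± 0.25, and edgeR's adjusted p was 1.0 for all 6. Both KO lines lay above both WT lines for 6 genes, Cdc45, Gmnn, Gins1, Gins2, Orc6 and Pold1 (19.0% of all genes), and below them for none (18%). Without the highest-numbered library of each of 6 lines, 794-3 among them, the fold change of Gins2 was 0.19 and that of Tk1 0.25, and without line 794 that of Gmnn was 0.14. The median over the 39 genes was -0.10 without WT line 752 and 0.41 without WT line 565.

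Taken as the mean of both dysplasia classes, p53 loss gave a median log2 fold change of -0.13, against -0.01 over all tested genes. Of the 39 genes, 6 were above 0 and 33 below (48.5% and 51.5% of all genes). The genes with the smallest unadjusted p were Ccne1 (-0.38 ± 0.30), Mcm5 (-0.33 ± 0.35), Rrm2 (-0.31 ± 0.31), Prim1 (-0.24 ± 0.17), Rfc5 (-0.19 ± 0.19) and Pold1 (0.20 ± 0.21), each with an adjusted p of 1.00 in edgeR. Prim1 was at 38.8 ± 7.09 CPM in the 4 KO lines and 46.1 ± 7.30 CPM in the 4 WT lines. No gene of the 39 had its 4 KO lines all above or all below its 4 WT lines (0.920% and 1.46% of all genes), and edgeR, DESeq2 and limma-voom called none (0% of all genes in edgeR, and 0 of the 39 with an unadjusted p under 0.05). Its median was 0.08, 0.06, 0.00 and -0.43 when lines 650, 1269, 565 and 1270 were left out in turn.

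Dysplasia was compared first in organoids with wild-type p53. All 39 genes had a log2 fold change below 0, where 57.3% of all genes did. The median was -0.40 (range -0.76 to -0.17) against -0.03 over all tested genes. None was called by edgeR (0% of all genes), DESeq2 or limma-voom, and none had an unadjusted p under 0.05 in edgeR. Ccne2 was at 13.4 ± 5.37 CPM in dysplastic lines and 22.5 ± 9.58 CPM in non-dysplastic lines (-0.75 ± 0.45, n = 2 lines each). Rfc5 was at 45.8 ± 6.57 CPM in the dysplastic and 65.4 ± 13.6 CPM in the non-dysplastic WT lines (-0.52 ± 0.27), and Tyms was at 69.3 ± 12.1 CPM in the dysplastic and 91.5 ± 10.6 CPM in the non-dysplastic WT lines (-0.40 ± 0.21). Dysplastic and non-dysplastic lines overlapped for Ccne2 and not for Rfc5 or Tyms. Gins1, Gmnn and Gins2 had -0.43 ± 0.26, -0.38 ± 0.24 and -0.34 ± 0.19, and edgeR's adjusted p was 1.0 for all 6. Both dysplastic lines lay below both non-dysplastic lines for 10 of the 39 genes (12.1% of all genes) and above them for none (13.7%). The 10 were Gmnn, Gins1, Gins2, Rfc3, Rfc5, Prim1, Tyms, Tk1, Dut and E2f2. All but E2f2 were among the 15 genes that were higher in the highest-numbered libraries of 6 lines. Lines 565, 752 and 300 have such a library and line 1269 does not. The part of these libraries in the lack of overlap was not tested. Without them the median over the 39 genes was again -0.40. Leaving out lines 1269, 752, 300 and 565 in turn gave medians of -0.03, -0.17, -0.66 and -0.66. When sex was added as a covariate the median was -0.77 and 29 of the 39 genes had an unadjusted p under 0.05 in edgeR, with none called. Within a group, sex differs only between WT lines 300 and 1269 and between KO lines 650 and 1270, all non-dysplastic. The sex term therefore cannot be told apart from the differences between these lines. The share of all genes in that fit is not given.

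In KO organoids dysplasia had a median log2 fold change of 0.10, against 0.02 over all tested genes. Of the 39 genes, 28 were above 0, as were 52.3% of all genes. None was called by edgeR (0% of all genes), DESeq2 or limma-voom, and none had an unadjusted p under 0.05 in edgeR. Gmnn was at 49.2 ± 15.8 CPM in dysplastic lines and 36.1 ± 5.28 CPM in non-dysplastic lines (0.45 ± 0.24, edgeR adjusted p 0.75), and Tk1 at 90.6 ± 30.1 CPM in the dysplastic and 67.2 ± 10.4 CPM in the non-dysplastic KO lines (0.43 ± 0.25, edgeR adjusted p 0.76; n = 2 lines each). Orc6, Pold1 and Gins2 had 0.33 ± 0.24, 0.33 ± 0.29 and 0.28 ± 0.19, and E2f2 averaged 5.94 ± 2.69 CPM on the dysplastic side and 10.2 ± 7.60 CPM on the non-dysplastic one (-0.79 ± 0.62). Both dysplastic lines lay above both non-dysplastic lines for Orc6 alone (16.3% of all genes) and below them for none (15.7%). The non-dysplastic side of this comparison joined the ex vivo line 1270 and the in vivo line 650, the second highest and the lowest of the 8 lines. Leaving out lines 1270, 650 and 801 in turn gave medians of 0.61, -0.28 and 0.00. The median was 0.46 without the second library of line 1270, -0.11 without its first, -0.02 without the first library of line 650, 0.22 without the second, and -0.20 with sex as a covariate. The sex term has the limit given for the WT lines. Without library 1270-2, 6 of the 39 genes had an unadjusted p under 0.05 in edgeR, with none called and no share over all genes given.

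The mean effect of dysplasia over genotypes had a median of -0.13 over the 39 genes, against -0.02 over all tested genes. Of the 39 genes, 4 were above 0, as were 46.2% of all genes. E2f2 was at 6.57 ± 1.89 CPM in the 4 dysplastic lines and 11.2 ± 5.40 CPM in the 4 non-dysplastic lines (-0.77 ± 0.44, edgeR adjusted p 0.96). Mcm5, Mcm10, Rfc5, Gins1 and Tyms had -0.36 ± 0.35, -0.32 ± 0.29, -0.24 ± 0.19, -0.19 ± 0.18 and -0.18 ± 0.15. No gene of the 39 had its 4 dysplastic lines all above (1.74% of all genes) or all below (1.31%) the non-dysplastic ones, and edgeR, DESeq2 and limma-voom called none (0% of all genes in edgeR, and 0 of the 39 with an unadjusted p under 0.05). Leaving out lines 1270, 1269 and 650 in turn gave medians of 0.11, 0.01 and -0.34. Sex as a covariate, with the limit given for the WT lines, gave -0.48. In that fit 17 of the 39 genes had an unadjusted p under 0.05 in edgeR and none was called, and the share of all genes is not given.

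Whether p53 loss had another effect in dysplastic than in non-dysplastic organoids was tested as an interaction. Both dysplastic KO lines were knocked out in vivo, while the non-dysplastic KO side joined ex vivo line 1270 and in vivo line 650. The interaction therefore also holds a difference in mode of knockout. The interaction was above 0 for 38 of 39 genes, where 55.4% of all genes were above 0. Its median was 0.55 on the log2 scale against 0.04 over all tested genes, and it shares its lines with the comparisons above. edgeR called no gene (0% of all genes), nor did DESeq2 or limma-voom, and Gmnn alone had an unadjusted p under 0.05 (0.83 ± 0.34, p 0.049 and adjusted p 1.00 in edgeR), where 1.19% of all genes had one and a positive sign. Gins2, Tk1, Orc6, Orc1 and Tyms had interactions of 0.62 ± 0.27, 0.69 ± 0.35, 0.66 ± 0.35, 0.90 ± 0.53 and 0.45 ± 0.30. Of the genes named here, all but Orc1 were among the 15 genes that were higher in the highest-numbered libraries of 6 lines. Without these libraries 0 of the 39 genes, Gmnn included, had an unadjusted p under 0.05 in edgeR, and the median was 0.56. The median of the interaction was 0.12, 0.15, 0.29 and 1.08 when lines 1269, 650, 752 and 1270 were left out in turn. Without library 1270-2, 14 of the 39 genes had an unadjusted p under 0.05 in edgeR, with none called and no share over all genes given.

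The ex vivo KO line 1270 was set against the in vivo KO line 650, both non-dysplastic, with 1 line a side. All 39 genes were higher in line 1270, where 48.2% of all genes were. The median log2 fold change was 0.96 (range 0.30 to 1.68) against -0.02 over all tested genes. None was called by edgeR (0% of all genes, smallest adjusted p 0.67), and 11 had an unadjusted p under 0.05, where 2.40% of all genes had one and were higher. DESeq2 gave an unadjusted p under 0.05 to 20 of the 39 and a smallest adjusted p of 0.0692, limma-voom to 14 with a smallest adjusted p of 0.191, and neither called any. Mcm5 was at 215 CPM in line 1270 and 76.1 CPM in line 650 (1.5 ± 0.44). Cdt1 was at 56.1 CPM in 1270 and 22.6 CPM in 650 (1.31 ± 0.43), Mcm10 at 56.4 CPM in 1270 and 24.8 CPM in 650 (1.18 ± 0.40), and Pola2 at 63.1 CPM in 1270 and 28.4 CPM in 650 (1.15 ± 0.36). Dut was at 74.0 CPM in 1270 and 37.9 CPM in 650 (0.96 ± 0.32), and Pold1 at 51.2 CPM in 1270 and 29.2 CPM in 650 (0.81 ± 0.30). The other 5 of the 11 were E2f2, Mcm2, Mcm7, Chaf1b and Rfc5, with log2 fold changes of 1.68, 1.27, 1.14, 0.96 and 0.75. The p21 gene Cdkn1a was at 32.1 CPM in line 1270, the lowest of the 8 lines, and 196 CPM in line 650. Elsewhere Cdkn1a was at 211 and 95.8 CPM in dysplastic KO lines 794 and 801, 287 and 275 CPM in dysplastic WT lines 565 and 752, and 224 and 425 CPM in WT lines 300 and 1269. Line 1269 thus had both the highest Cdkn1a and the highest level of 35 of the 39 genes. The lone lines were assumed to vary like the rest, and mode of knockout, line, sex and residual Trp53 cannot be told apart here. When sex was added as a covariate, its term rested on WT lines 300 and 1269 only, because lines 1270 and 650 were each alone in their group. The median with that covariate therefore cannot separate sex from the difference between lines 300 and 1269. The counts that follow, and those of DESeq2 and limma-voom, are given without the share over all genes. They cannot be read as particular to the 39 genes. The median was 1.31 without the first library of line 1270, 0.40 without its second, 0.59 without the first of line 650, 1.26 without its second, 1.26 without the 6 highest-numbered libraries, and 0.31 with sex as a covariate. In the same order 31, 0, 5, 29, 33 and 0 of the 39 genes had an unadjusted p under 0.05. That count was 4 without library 1269-2, 17 without 1269-1, 23 without line 300 or line 1269 and 19 without the filter on low counts, and none was called.

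**Figure D3:**
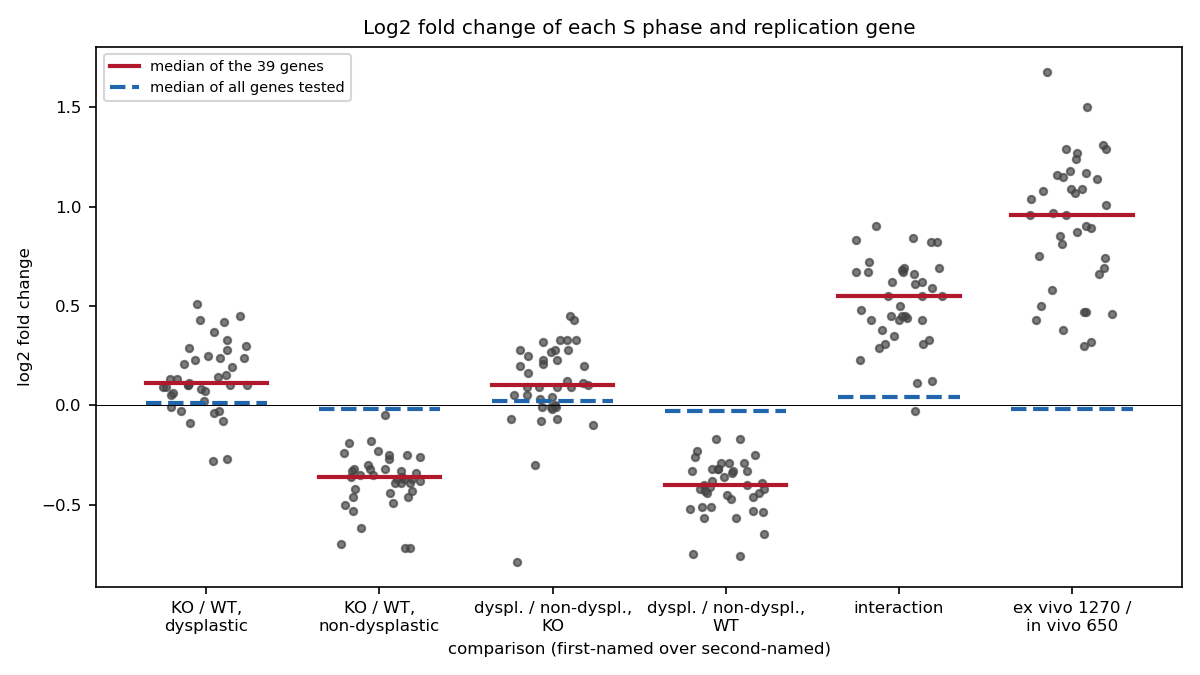
Log2 fold change of each of the 39 genes (points) in 6 comparisons, with the median of the 39 genes in red and of all tested genes as a dashed blue line. The medians are 0.11, -0.36, 0.10, -0.40, 0.55 and 0.96 from left to right, and no gene was called in any comparison.

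The median SD of log2 levels was 0.36 between libraries of a line and 0.48 between lines of a group over the 39 genes, against 0.29 and 0.24 over all tested genes. The second library of line 1270 was above the first for 39 of 39 genes, with a median log2 difference of 0.89, while the median over all genes was 0.04. The second library of line 650 was above the first for 38 genes (median 0.56), and that of line 1269 was below the first for all 39 (median -0.39). In lines 794 and 752 the second library was below the first for 39 and 38 genes (medians -0.50 and -0.41). Over all genes the second library was higher for 54.1%, 50.7%, 45.0%, 49.1% and 47.0% in lines 1270, 650, 1269, 794 and 752. Across all 20 libraries the first of line 650 had the lowest level for 30 of the 39 genes, and the first of line 1269 the highest for 22. The 20 genes of G2/M and mitosis went the same way in these pairs, with medians of 1.05 in line 1270 (20 of 20 higher), 0.48 in line 650, -0.45 in line 1269 (0 of 20 higher), -0.42 in line 794 and -0.53 in line 752.

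**Figure D4:**
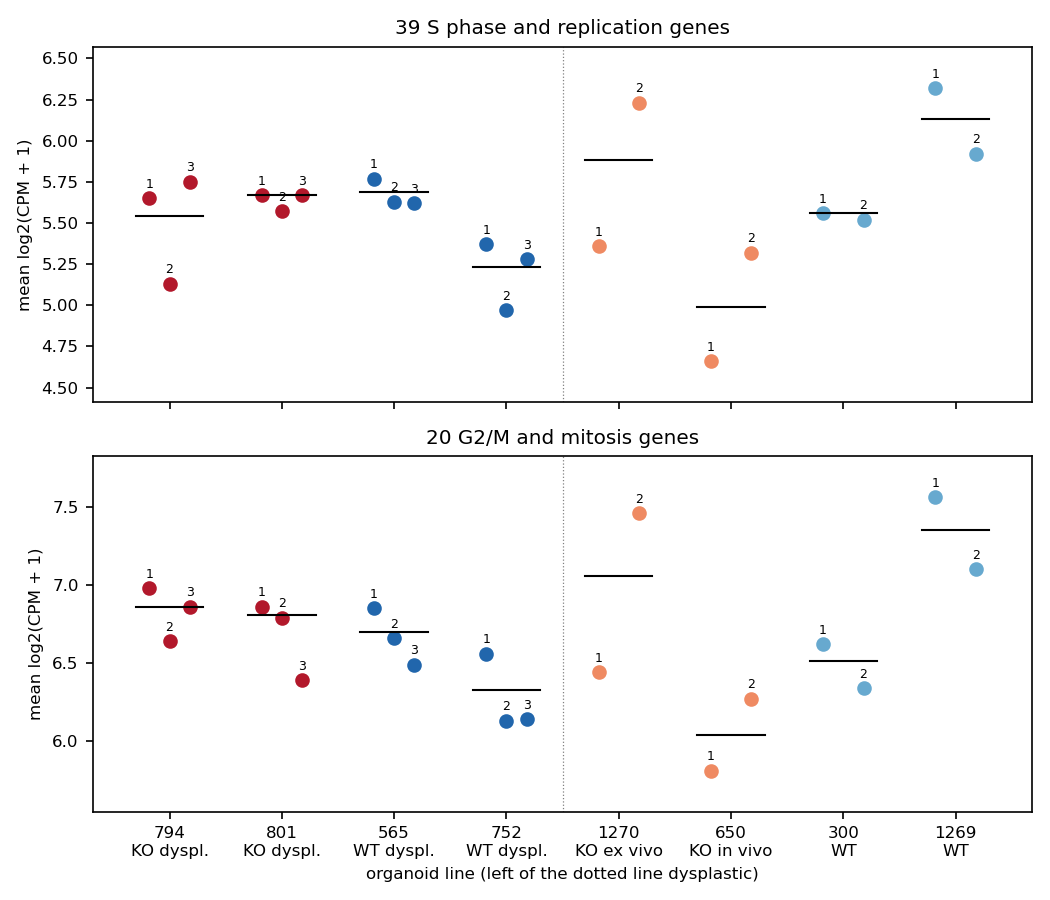
Mean log2(CPM + 1) of the 39 S phase genes (top) and of 20 G2/M and mitosis genes (bottom) in each library (points with library numbers) and line (bars). The libraries of line 1270 are at 5.36 and 6.23 and those of line 650 at 4.66 and 5.32 in the top panel, and both panels have their lowest library in line 650 and their highest in line 1269.

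The highest-numbered libraries of lines 794, 801, 565, 752, 650 and 300 split the 39 genes in another way. Set against the other libraries of the same line, they were higher in all 6 lines for 15 of the 39 genes (23.7% of all genes) and lower in all 6 for none (27.0% of all genes). Line 650 nearly fixed the absence of genes lower in all 6 lines. Its second library was above its first for 38 of the 39 genes. Gins2 had the largest difference, with a median of 1.08 on the log2 scale over the 6 lines (1.54, 1.26, 0.33, 0.90, 1.53 and 0.91 in the order of lines just given). Gmnn, Prim1, Rfc4, Tk1, Tyms, Rfc3 and Orc6 followed with medians of 0.83, 0.83, 0.81, 0.78, 0.77, 0.73 and 0.71. At the other end Uhrf1, Pola1, Mcm4 and Pole had medians of -0.63, -0.62, -0.60 and -0.52, and each was lower in 5, 5, 5 and 4 of the 6 lines. The 15 genes that were higher in all 6 lines have coding sequences of at most 1251 bases (Prim1), such as Gins2 with 555 bases, Gmnn with 618, Tk1 with 699 and Orc6 with 786. Many of the genes that were lower have long ones, such as Pole with 6849, Pola1 with 4395 and Mcm4 with 2586. E2f2 (1329 bases, median -0.30) and E2f1 (1290 bases, median -0.14) were lower in 5 of the 6 lines with short coding sequences, and Orc1 (2520 bases, median 0.23) was higher in 4 with a long one. Over the 39 genes the Spearman correlation of the median difference with coding length was -0.80, and over 12266 tested genes with a coding length it was -0.58. Genes share the same libraries and are not independent replicates. The 20 members of the list with a coding sequence under 1500 bases, a limit set after these values were seen, had a median difference of 0.53 and the 19 longer ones -0.26, against 0.18 and -0.25 over all genes. Within single lines the correlation over the 39 genes was between -0.81 and -0.68 in these 6 libraries. It was 0.09 for the second against the first library of line 1270, where all 39 genes were higher, -0.47 for that of line 1269, and between -0.19 and 0.09 for the second libraries of the 4 dysplastic lines. Of the 6 genes given with values for KO against WT in dysplastic lines, all but Pold1 were among the 15, and the values of Gins2 and Tk1 without these libraries stand with that comparison. The genes whose lines did not overlap for KO against WT in non-dysplastic lines were all among the 15. So were those of dysplasia in WT lines except E2f2, and the interaction genes given with values except Orc1.

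**Figure D5:**
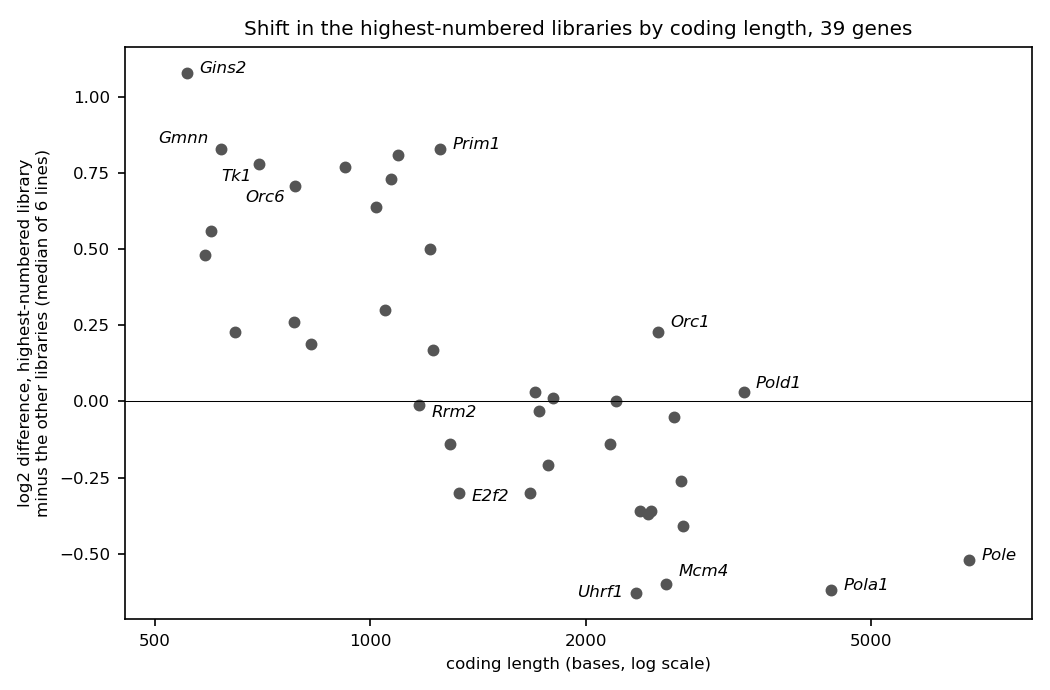
Median log2 difference over 6 lines between the highest-numbered library and the other libraries of its line (vertical axis) against coding length in bases (horizontal axis, log scale) for the 39 genes. Gins2 with 555 bases is at 1.08 and Pola1 with 4395 bases at -0.62, and the Spearman correlation is -0.80.

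Other genes of the pathway came from lists that complete the machinery and its regulators. In each of the 8 comparisons edgeR called none of 21 further origin and fork factors, 18 further polymerase, clamp and lagging-strand genes, 16 further genes of nucleotide supply and chromatin assembly, 14 E2F and RB family genes, 16 G1 cyclins, kinases and inhibitors and 20 G2/M genes. In the 1270 against 650 comparison their median log2 fold changes were 0.69, 0.60, 0.56, 0.55, 0.20 and 1.08. Of these, Pold2, a small subunit of polymerase delta, was at 80.6 CPM in line 1270 and 42.2 CPM in line 650 (0.93 ± 0.25), and Lig1, the ligase of the lagging strand, at 145 CPM in 1270 and 61.1 CPM in 650 (1.25 ± 0.40). E2f8, a repressing E2F, was at 58.4 CPM in 1270 and 19.8 CPM in 650 (1.56 ± 0.45), Timeless, a fork protection factor, at 42.9 CPM in 1270 and 14.1 CPM in 650 (1.61 ± 0.56), and Plk1, a mitotic kinase, at 129 CPM in 1270 and 46.5 CPM in 650 (1.47 ± 0.44). All 5 were lower in line 650 than in any other line, where 14.6% of all tested genes were. They were taken from the genes with the smallest p in this same comparison, so their choice favoured a low level in line 650. Unadjusted p was under 0.05, in either direction, for 4 of the 21, 6 of the 18, 1 of the 16, 3 of the 14, 4 of the 16 and 7 of the 20 genes, against 7.07% of all tested genes. For p53 loss in non-dysplastic lines the medians were -0.24, -0.25, -0.26, -0.25, -0.16 and -0.37, and for dysplasia in WT lines -0.33, -0.19, -0.18, -0.28, -0.15 and -0.48. Pole2, the second subunit of polymerase epsilon, was at 18.4 and 13.4 CPM in KO lines 1270 and 650 and at 23.5 and 29.0 CPM in WT lines 300 and 1269 (-0.72 ± 0.24, unadjusted p 0.020 and adjusted p 1.0 in edgeR). In dysplastic KO lines 794 and 801 Pole2 was at 17.5 and 18.9 CPM, against 23.6 and 18 CPM in dysplastic WT lines 565 and 752, so the KO and WT lines overlapped there. Of the G1 regulators, Cdkn2a, which encodes an inhibitor of cyclin D kinases and the p53 activator ARF, was at 285 and 126 CPM in dysplastic KO lines 794 and 801 and at 28.4 and 21.8 CPM in dysplastic WT lines 565 and 752. Among non-dysplastic lines Cdkn2a was at 58.8 and 64.2 CPM in KO lines 1270 and 650 and at 17.8 and 20.8 CPM in WT lines 300 and 1269, so its 4 KO lines lay above its 4 WT lines. Its log2 fold change for KO against WT was 3.03 ± 0.39 in dysplastic lines, 1.67 ± 0.37 in non-dysplastic lines and 2.35 ± 0.27 on average, with edgeR's unadjusted p at 0.00013, 0.0032 and 6.5e-05 and adjusted p at 1.0, 1.0 and 0.74. For dysplasia in KO lines it was 1.74 ± 0.37 (edgeR unadjusted p 0.0025, adjusted p 0.53).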

How the data were processed

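The deposited table held raw counts per gene symbol for 20 libraries. The submitters' processing notes name the build mm9 and the tools STAR 2.5 and bcl2fastq, and the sources used here give no annotation, gene counter or strand setting. Counts of a line were summed over its 2 or 3 libraries. Genes were filtered with filterByExpr, scaled by trimmed mean of M-values and fitted with edgeR 4.0.16 (R 4.3.3, robust quasi-likelihood, 4 group means, 4 residual degrees of freedom; 5 group means and 3 for ex vivo against in vivo KO), with Benjamini-Hochberg adjustment over 13476 genes at 0.05. SE is the absolute log2 fold change over the square root of F. Alternatives were other scalings, no filter, covariates, left-out lines and libraries, DESeq2 1.42.0, and limma-voom (limma 3.58.1) on libraries with lines as correlated units. The scripts were tested on simulated data. Genes with fold changes are, per comparison, the 6 members with the smallest unadjusted p; library values are given for these and for further members chosen by role, and up to 3 genes of each other list and comparison by smallest p were eligible. The 39 genes and the other lists were chosen with earlier results of these data known. Libraries of a line differed beyond sampling noise (chi-square per degree of freedom at least 5.84). Coding length is the longest CCDS coding sequence in GENCODE vM21, in which exons of 12 of the 39 genes overlap another gene. Levels of different genes were not compared.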

Additional observations from a re-analysis of the deposited data

Results flagged for a closer look

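In 24 genes and 4 groupings of 4 lines each (96 groups), 2 groups had a line whose gap to the nearest of the others, divided by the range, was above Dixon's critical value for 4 values. Chance flags about 1 in 20 groups. Both were line 650, the in vivo KO non-dysplastic line. Gins2 was at 28.5 CPM in line 650, against 37.1, 38.0 and 37.1 CPM in the other non-dysplastic lines 1270, 300 and 1269, and its 2 libraries in line 650 differed, at 15.3 and 46.3 CPM. Pold1 was at 29.2 CPM in line 650, against 51.2, 50.4 and 51.0 CPM in the other KO lines 1270, 794 and 801.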

How the results depend on the processing

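No setting called any of the 39 genes in any comparison. Under other settings, the number of the 39 genes with an unadjusted p under 0.05 is given without the share over all genes. For 48 gene values with a fold change, 1140 values under 24 settings gave 7 of the opposite sign, 5 of them from leaving out a line and none past the threshold. Leaving out 1 line gave medians of -0.94 to 0.01 for KO against WT in non-dysplastic lines, -0.28 to 0.61 for dysplasia in KO lines and 0.12 to 1.08 for the interaction. The ex vivo against in vivo median was 0.31 with sex as a covariate and 0.40 without library 1270-2; leaving out single libraries of lines 1270, 650 and 1269 was added after seeing the data. Leaving out 1 line turned the sign of Pold1 (KO against WT, mean, -0.03 to 0.37, negative without line 1270; dysplasia in KO, -0.02 to 0.77, negative without 650) and, without line 1270, of E2f2 (dysplasia in KO, -1.40 to 0.27), Mcm10 (dysplasia, mean, -0.56 to 0.03) and Mcm5 (dysplasia, mean, -0.64 to 0.11). Without library 650-1 Gins2 was at -0.09 (dysplasia in KO). The cause was not tested for any of these.

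edgeR called no gene in any comparison at the settings used for the report, while DESeq2 called 80, 0, 78, 4, 216, 157, 0 and 193 genes for KO against WT in dysplastic lines, in non-dysplastic lines and on average, dysplasia in WT, in KO and on average, the interaction, and ex vivo against in vivo. Limma-voom called 103, 5, 63, 0, 255, 144, 0 and 30, and with a replicate block 38, 1, 51, 0, 140, 101, 0 and 13; none of these was among the 39. Over all numbers, same-numbered libraries of different groups had deviations from the group mean correlated at r from -0.79 to 0.76 (median 0.15, 54 pairs). The median was -0.05 for different numbers. In groups of 2 lines these deviations also hold the difference between the lines. The correlations therefore cannot decide whether same-numbered libraries belong together, and the block was not taken as a pairing. The third libraries of lines 794, 801, 565 and 752 did share a deviation, by coding length, with the second libraries of 650 and 300. Each group had 2 lines, and 1 on each side of the ex vivo and in vivo comparison, while each of the 39 genes had at least 26 counts in every library.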
